A study of Mus musculus with 16 samples.

Results

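This report describes 10 genes of apoptotic cell uptake and scavenging in macrophages sorted from mouse gliomas: Gas6, Pros1, Mertk, Mfge8, Timd4, Msr1, Marco, Cd36, Scarb1 and Cd93. They were chosen by name for what they do, with earlier results of these data known. The array measured 12394 genes by a probe set annotated to 1 symbol only. Such a probe set was found for 9 of the 10 genes, and Timd4 was not analysed here. The macrophages came from 16 mice of the genotype Nestin-Tv-a;Ink4a/Arf-/- on a mixed background, in which gliomas were started by intracranial injection of DF-1 cells producing RCAS-PDGF-B-HA, a retrovirus that infects the cells carrying its receptor under the Nestin promoter. Of these mice, 8 received the CSF-1 receptor inhibitor BLZ945 and 8 received the vehicle, captisol, by daily gavage for 7 days. Each BLZ945 dose is labelled as 200 mg with no weight of the mouse. All 16 mice therefore shared the tumour model and the loss of Ink4a/Arf, and differed in the agent. The BLZ945 group held 5 females and 3 males, 4 of them aged 11.29 weeks and 4 aged 13.14 weeks. The Vehicle group held 4 females and 4 males, 4 of them aged 11.29 weeks, 2 aged 11.43 weeks and 2 aged 12.29 weeks. The labelled initial tumour volume, given without a unit, was 41.3 to 132.3 in BLZ945 and 11.9 to 27.3 in the 6 Vehicle mice that have one, so volume and agent cannot be told apart. An enrolment range of 4.5 to 40 mm3 is recorded for all 16 mice. If the unit is the same, every BLZ945 volume lies above that range. Cells were sorted as CD11b+ and Gr.1-, and each mouse gave 1 array.

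Dying cells expose phosphatidylserine on their outer surface, and macrophages find them through receptors that bind this lipid directly or through soluble bridging proteins. Gas6 and protein S (Pros1) bridge the lipid to the TAM receptor tyrosine kinases Tyro3, Axl and Mertk, and Mfge8 bridges it to integrins of the alpha v family. Scavenger receptors take up modified lipoproteins, lipids, microbes and debris. Microglia and infiltrating macrophages use both systems to clear cells and lipid from the brain.

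Expression is given as the authors' log2 value per probe set, so a difference of 1 is a doubling, and levels of different genes cannot be set against each other. Differences are BLZ945 minus Vehicle, levels are means ± SD over 8 mice each, and adjusted p-values are limma's with Benjamini-Hochberg adjustment over all genes, called at 0.05. The SD of an array's values was 2.22 to 2.49 and no array was a repeat of another (highest correlation 0.991). Of 9 measured macrophage markers 1 fell, Itgam, which encodes the sorting marker CD11b (8.90 ± 0.63 in BLZ945 and 10.07 ± 0.51 in Vehicle, adjusted p = 0.00807), while Csf1r was 13.66 ± 0.12 and 13.61 ± 0.14 in the same order. Of 10 markers of glioma cells and oligodendrocyte precursors 5 were called lower, with list means per mouse of 4.58 to 6.03 in BLZ945 and 5.83 to 7.47 in Vehicle. Of 8 astrocyte markers 2 fell, with list means of 5.14 to 6.12 in BLZ945 and 5.90 to 6.54 in Vehicle. Of 5 monocyte markers 1 fell, with list means of 4.83 to 7.71 in BLZ945 and 6.80 to 8.80 in Vehicle. Of 7 microglia markers 2 fell, with list means of 9.81 to 11.10 in BLZ945 and 10.63 to 11.50 in Vehicle. None of 13 endothelial markers passed, with list means of 4.93 to 5.42 in BLZ945 and 4.83 to 5.73 in Vehicle. None of 6 T and NK cell markers passed either, with list means of 4.12 to 5.28 in BLZ945 and 3.71 to 4.63 in Vehicle. In RNA from sorted bulk cells, fewer cells of a type and less RNA per cell cannot be told apart.

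Among the 9 measured genes, 2 were lower in BLZ945 and 0 were higher at an adjusted p under 0.05, where 7.94% of all genes passed (2.6% higher and 5.34% lower). Cd93 had by far the widest gap of the 9 and was the only one whose groups did not overlap, where 1.36% of all genes did not (1.04% with BLZ945 below). Scarb1 fell by a smaller amount. Gas6 and Msr1 differed downwards and Mertk upwards without passing, and Pros1, Mfge8, Marco and Cd36 did not pass either. The median difference was -0.17 over the 9 genes and 0.07 over all genes tested. At an unadjusted p under 0.05, 5 of the 9 and 22.6% of all genes stood apart.

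**Figure D1:**
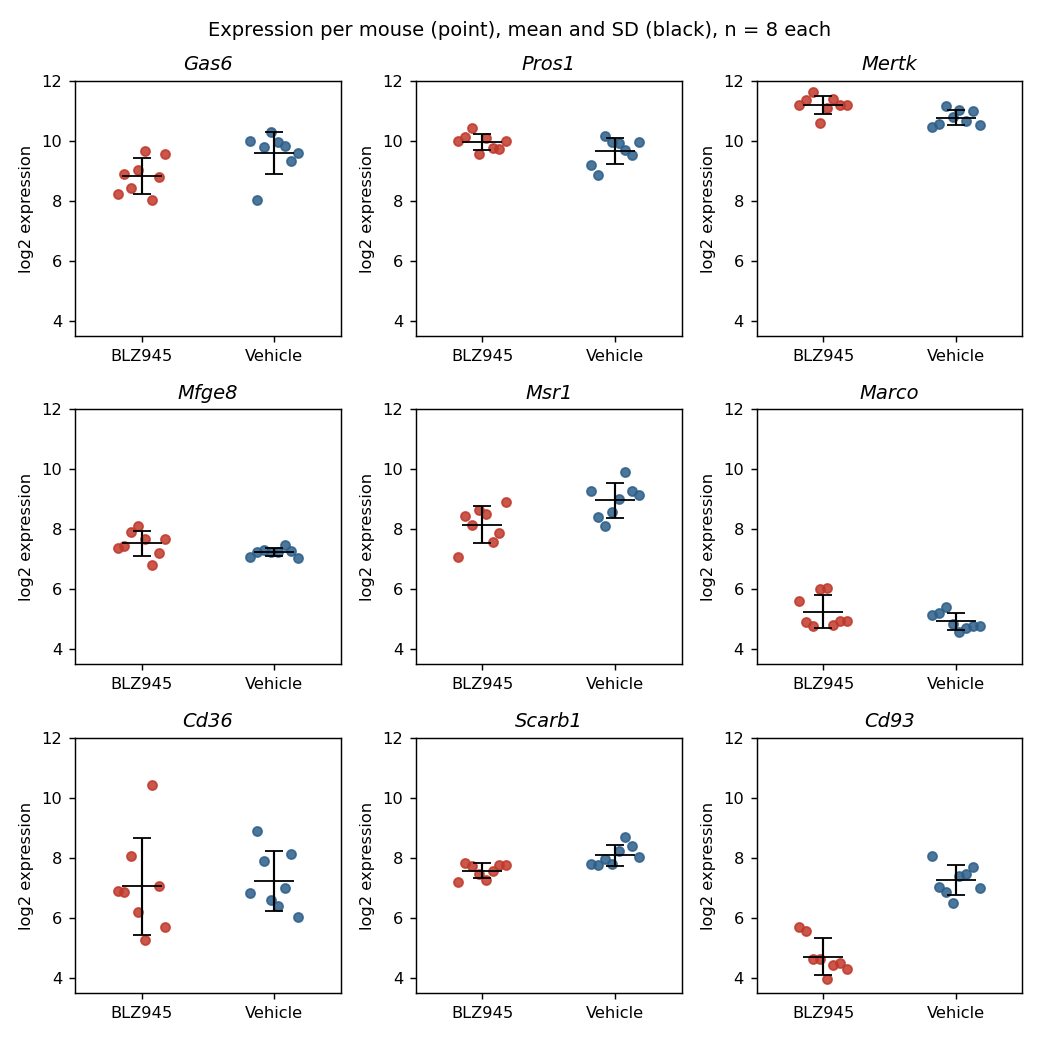
Log2 expression of the 9 measured genes in each mouse (points), BLZ945 at left and Vehicle at right in each panel, with the mean and SD of 8 mice in black. The 8 BLZ945 mice have Cd93 between 3.95 and 5.69, all below the Vehicle mice at 6.50 to 8.07, while the groups of the other 8 genes overlap.

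The ligand Gas6, a vitamin K-dependent protein that activates the TAM receptors, was lower on average in BLZ945. Its lowest, median and highest values were 8.03, 8.85 and 9.68 in BLZ945, against 8.04, 9.81 and 10.31 in Vehicle. Vehicle 2 lay at 8.04, while the other 7 Vehicle mice lay at 9.33 or above. The groups overlapped without Vehicle 2 as well, since BLZ945 5 (9.68) and BLZ945 8 (9.56) lay above Vehicle 7 (9.33). The difference of -0.78 (SE 0.29, 95% confidence interval -1.39 to -0.17) did not pass (adjusted p = 0.112). Without Vehicle 2 it was -1.004 with an adjusted p of 0.00968, and since Vehicle 2 was the lowest Vehicle mouse, leaving it out favours a fall. With the mean of the glioma and oligodendrocyte precursor markers as a covariate the difference was -0.26 (adjusted p = 0.898), and with that of the T and NK cell markers -0.16 (adjusted p = 0.908). It was wider and passed with sex and age cohort as covariates (-1.59, adjusted p = 0.0175) and with the monocyte markers (-1.46, adjusted p = 0.00434), and passed with array weights (-0.89, adjusted p = 0.0343). With log2 tumour volume it was -1.57 (adjusted p = 0.0837).

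Pros1, better known as a cofactor of the anticoagulant protein C, is the other soluble ligand of Mertk. It ranged from 9.56 through a median of 10.01 to 10.43 in BLZ945, against 8.88, 9.81 and 10.15 in Vehicle. The groups overlapped, with 1 BLZ945 mouse above every Vehicle mouse, and Vehicle 1, Vehicle 2 and Vehicle 7 below every BLZ945 mouse. The difference was 0.30 (SE 0.17, 95% confidence interval -0.06 to 0.67, adjusted p = 0.317), of the opposite sign to that of Gas6.

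Mertk, the TAM receptor with the best known part in efferocytosis, had its lowest, median and highest values at 10.60, 11.20 and 11.63 in BLZ945, against 10.48, 10.73 and 11.16 in Vehicle. In 6 of 8 BLZ945 mice it lay above every Vehicle mouse, and BLZ945 4, the lowest, lay inside the Vehicle range. The difference of 0.43 (SE 0.14, 95% confidence interval 0.13 to 0.72) missed the threshold (adjusted p = 0.0702). It passed without BLZ945 4 (0.51, adjusted p = 0.0174) or Vehicle 3 (0.48, adjusted p = 0.0471), the mouse with the highest Mertk of the Vehicle group, so both omissions favour a rise. Mertk also passed with the SD of each array as a covariate (0.58, adjusted p = 0.00268) and after repeated quantile normalization (0.50, adjusted p = 0.0175), and was 0.03 (adjusted p = 0.959) with log2 tumour volume and 0.25 (adjusted p = 0.761) with the glioma and oligodendrocyte precursor markers as a covariate. Of the other TAM receptors, Axl rose (10.08 ± 0.41 in BLZ945 and 9.24 ± 0.40 in Vehicle, difference 0.85, SE 0.19, adjusted p = 0.00899), while Tyro3 was 4.20 ± 0.25 and 4.04 ± 0.14 in the same order (adjusted p = 0.396). Axl passed in 35 of 43 alternative fits, among them all 16 that left out 1 mouse. Its call ended with sex and age cohort (0.76, adjusted p = 0.192) or log2 tumour volume (0.47, adjusted p = 0.467) as covariates, in the mice of 11.29 weeks (0.76, adjusted p = 0.273) and in males (0.51, adjusted p = 0.64). It also ended with the microglia, astrocyte, glioma or T and NK cell markers as a covariate (adjusted p 0.0967 to 0.29).

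Mfge8, a secreted bridging protein also called lactadherin, was between 6.82 and 8.12 in BLZ945 with a median of 7.56, against 7.06 to 7.48 with a median of 7.25 in Vehicle. The BLZ945 mice were more widely spread (SD 0.41) than the Vehicle mice (SD 0.13), with 4 BLZ945 mice above and 1 below every Vehicle mouse. The difference was 0.29 (SE 0.15, 95% confidence interval -0.03 to 0.60, adjusted p = 0.272). It was 0.52 in females (adjusted p = 0.146) and -0.10 in males (adjusted p = 0.931), and the interaction of agent and sex, 0.62 (SE 0.25), had an adjusted p of 0.983.

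Of the class A scavenger receptors, which bind modified lipoproteins and bacterial surfaces, Msr1 was lower on average in BLZ945 and Marco was not. Msr1 had 7.07, 8.30 and 8.93 as lowest, median and highest value in BLZ945, against 8.10, 9.09 and 9.91 in Vehicle. All 8 BLZ945 mice lay below the Vehicle mean and 3 of them below every Vehicle mouse. On the brightest of its 4 probe sets the difference of -0.81 (SE 0.27, 95% confidence interval -1.37 to -0.25) did not pass (adjusted p = 0.0701). The probe sets disagreed on the call but not on the direction: in the fit of all probe sets, the others differed by -0.69 (adjusted p = 0.0761), -0.80 (adjusted p = 0.0436) and -1.48 (adjusted p = 0.000898). The last is the dimmest of the 4, at 4.01 ± 0.36 in BLZ945 and 5.48 ± 0.65 in Vehicle. With the mean of all 4 probe sets Msr1 was 0.95 log2 units lower in BLZ945 and passed (adjusted p = 0.0118). It also passed without Vehicle 3 (adjusted p = 0.0349), the lowest Vehicle mouse, or BLZ945 8 (adjusted p = 0.044), the highest BLZ945 mouse. With the mean of the glioma and oligodendrocyte precursor markers as covariate the difference was 0.01 (adjusted p = 0.998), and 5 of 10 of those markers fell in BLZ945. With log2 tumour volume it was -2.19 (adjusted p = 0.061).

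Marco, the receptor of alveolar and splenic marginal zone macrophages, lay between 4.77 and 6.05 with a median of 4.94 in BLZ945, against 4.59 to 5.42 with a median of 4.81 in Vehicle. BLZ945 1, 4 and 5 were above every Vehicle mouse at 5.61 to 6.05, and the other 5 BLZ945 mice lay between 4.77 and 4.95. The difference of 0.33 (SE 0.20, 95% confidence interval -0.10 to 0.75) did not pass (adjusted p = 0.351), and with the SD of each array as a covariate it was 0.06 (adjusted p = 0.852). With log2 tumour volume it was 1.38 (adjusted p = 0.0769). With the platelet markers it was 0.64 and passed (adjusted p = 0.0151), the only one of 43 alternative fits in which Marco did. In that fit far more of all genes passed than in the main fit.

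Scarb1, the class B receptor that exchanges cholesterol with high density lipoprotein, was lower in BLZ945. Its lowest, median and highest values were 7.19, 7.65 and 7.84 in BLZ945, against 7.77, 7.99 and 8.71 in Vehicle. All 8 BLZ945 mice lay below the Vehicle mean and 5 of them below every Vehicle mouse. The difference was -0.51 (SE 0.15, 95% confidence interval -0.82 to -0.20, adjusted p = 0.041). Its call passed in 7 of 16 fits with 1 mouse left out, and was lost on omitting Vehicle 5, 6, 7 or 8, or BLZ945 1, 4, 5, 6 or 7, with adjusted p-values of 0.0506 to 0.0833. The call also ended with the SD of each array as covariate (-0.34, adjusted p = 0.0613), with log2 tumour volume (-1.45, adjusted p = 0.0516), in females alone (-0.63, adjusted p = 0.134) and in males alone (-0.32, adjusted p = 0.699). With the mean of the glioma, astrocyte or T and NK cell markers as covariate the difference was -0.31, -0.32 and -0.22 (adjusted p = 0.701, 0.574 and 0.636).

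All 3 probe sets of Scarb1 were lower in BLZ945, yet they ordered the mice differently. In the fit of all probe sets the brightest passed (adjusted p = 0.0453), and the second (-0.64, adjusted p = 0.0985) and the third by brightness (-0.77, adjusted p = 0.0858) did not. BLZ945 4 had the highest value of its group on the second, 7.92, and BLZ945 3 the lowest, 6.42. On the third the same mice had 6.00 for BLZ945 4 and 7.28 for BLZ945 3, the other way round. Over the deviations of the 16 mice from their group means, the brightest probe set went with the third (r = 0.86) and against the second (r = -0.73), given as a description of probe sets that share the arrays. The brightest also went with the array SD (r = 0.74), whose part was not tested. The mean of the 3 probe sets gave a difference of -0.64 (adjusted p = 0.000608). In this mean the opposed deviations of the probe sets partly cancel, so its p-value is no measure of their agreement.

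**Figure D2:**
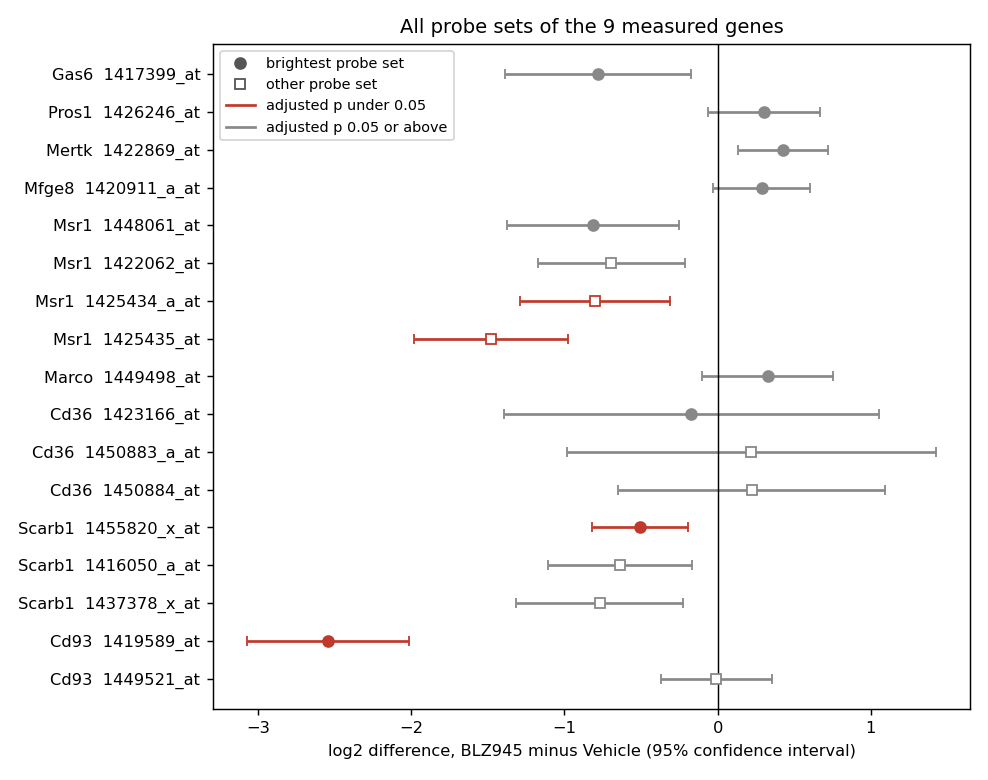
Log2 difference, BLZ945 minus Vehicle, with its 95% confidence interval for each of the 17 probe sets of the 9 genes, fitted over all probe sets with 1 symbol. Filled circles are the brightest probe set of a gene, open squares the others, and red marks an adjusted p under 0.05: the 4 Msr1 and 3 Scarb1 probe sets all lie left of 0, and the second Cd93 probe set lies at -0.01.

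Cd36, a class B receptor for oxidised lipoproteins, long-chain fatty acids and apoptotic cells, varied more between mice than any other of the 9 genes. Its lowest, median and highest values were 5.27, 6.87 and 10.44 in BLZ945, against 6.03, 6.92 and 8.90 in Vehicle. The medians were alike and BLZ945 6 stood above all other 15 mice. At -0.17 (SE 0.58) the difference had an adjusted p of 0.876, and its 95% confidence interval, -1.40 to 1.05, holds changes of more than 2-fold either way. The 3 probe sets followed each other over the mice, with correlations of 0.96 and 0.90 between the brightest and the others, and BLZ945 6 was the highest mouse on each (10.44, 10.65 and 6.66). The other probe sets differed by 0.22 each (adjusted p = 0.841 and 0.773), so the sign of the difference depends on the probe set. In females the difference was -0.52 (adjusted p = 0.587) and in males 0.60 (adjusted p = 0.907).

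The genes whose deviations from the group means were most like those of Cd36 over the 16 mice were Psme1 (r = 0.95), Psmb9 (r = 0.94) and Gbp2 (r = 0.94). They encode a proteasome activator subunit, a subunit of the immunoproteasome and a guanylate-binding protein, all known to be induced by interferon gamma. Cd36 was chosen for this look after its values were seen, and the points share their arrays. None of the 3 passed for the agent, with differences of -0.03 (adjusted p = 0.942), 0.03 (adjusted p = 0.959) and -0.27 (adjusted p = 0.821).

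Promoter windows of 300 bases, from 250 before to 50 after a listed transcription start, show how the Cd36 promoter compares with these genes. They are RefSeq sequences of the build GRCm38.p6, written 5′ to 3′ on the gene's strand, at chr5:17835847-17836146 (minus strand) for Cd36, chr14:55578244-55578543 (plus strand) for Psme1 and chr3:142620413-142620712 (plus strand) for Gbp2. Capitals mark matches, on either strand, to a pair of GAAA copies with 2 bases between them, the core of the interferon-stimulated response element.
Cd36: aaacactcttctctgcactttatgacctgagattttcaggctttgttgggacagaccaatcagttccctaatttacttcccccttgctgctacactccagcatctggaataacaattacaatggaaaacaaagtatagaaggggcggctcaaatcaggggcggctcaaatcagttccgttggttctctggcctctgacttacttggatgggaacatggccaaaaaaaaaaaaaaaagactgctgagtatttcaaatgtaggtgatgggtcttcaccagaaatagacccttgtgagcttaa
Psme1: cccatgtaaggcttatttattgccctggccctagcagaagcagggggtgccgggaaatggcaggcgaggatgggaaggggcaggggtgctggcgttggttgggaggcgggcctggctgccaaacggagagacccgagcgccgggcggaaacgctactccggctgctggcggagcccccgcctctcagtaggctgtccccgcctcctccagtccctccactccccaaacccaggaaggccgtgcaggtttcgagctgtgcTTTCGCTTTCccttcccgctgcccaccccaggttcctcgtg
Gbp2: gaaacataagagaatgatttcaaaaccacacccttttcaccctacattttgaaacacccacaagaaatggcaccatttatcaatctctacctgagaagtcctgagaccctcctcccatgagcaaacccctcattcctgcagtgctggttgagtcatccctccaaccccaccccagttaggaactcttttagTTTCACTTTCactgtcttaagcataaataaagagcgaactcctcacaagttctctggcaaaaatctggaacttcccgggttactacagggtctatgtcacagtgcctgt
The Gbp2 match starts at position -59 and the Psme1 match at position 9 from the start site. The gamma-activated sequence, TTC and GAA with 3 bases between them, was searched on the same strands. Neither the Gbp2 nor the Psme1 window held a match to it. The windows of Cd36 and Psmb9 held neither motif. Among 32851 windows in the table, 3.44% held the first motif and 8.3% the second. Of the 10 genes of this report, 7 have a window in the table, of which 0 held the first motif and 1, Pros1, the second. These letters are a description of the windows and say nothing of which factors bind there.

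Within the BLZ945 mice, those with more Cd36 had less Gas6. Over 8 mice Pearson's r was -0.85 (exact permutation p = 0.00303, adjusted over 72 relations 0.109) and Spearman's rho was -0.93 (exact permutation p = 0.00223, adjusted 0.161), and r was -0.79 without the 2 mice farthest from the median Gas6. In the 8 Vehicle mice r was -0.77 (exact permutation p = 0.018, adjusted 0.322) and rho -0.57 (exact permutation p = 0.151, adjusted 0.544), and without the 2 farthest mice r was -0.45, so that relation rests on those mice. Vehicle 2 had the highest Cd36 and the lowest Gas6 of its group. The BLZ945 mice of 11.29 weeks had Cd36 at 8.06 ± 1.68 and Gas6 at 8.40 ± 0.37. Those of 13.14 weeks had 6.05 ± 0.77 and 9.27 ± 0.42 in the same order. The part of age in the relation of Cd36 and Gas6 was not tested. The 72 relations are the 36 pairs of the 9 genes in each group, and 0 of them passed after adjustment, while 7 had an unadjusted exact permutation p of r under 0.05. Mertk and Marco ran in opposite directions in BLZ945 (r = -0.78, exact permutation p = 0.00236, adjusted 0.109, rho = -0.90, exact permutation p = 0.00456, adjusted 0.164, r = -0.71 without the 2 farthest mice) and not in Vehicle (r = 0.00, exact permutation p = 0.995, adjusted 0.995, rho = -0.02, exact permutation p = 0.977, adjusted 1), a difference that was not tested. Over the deviations of all 16 mice from their group means, Mertk went with the SD of the array (r = 0.73) and Marco against it (r = -0.81). BLZ945 1, 4 and 5, the mice with the highest Marco, had the 3 lowest array SDs, 2.22 to 2.27. The part of the array SD in this relation was not tested.

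**Figure D3:**
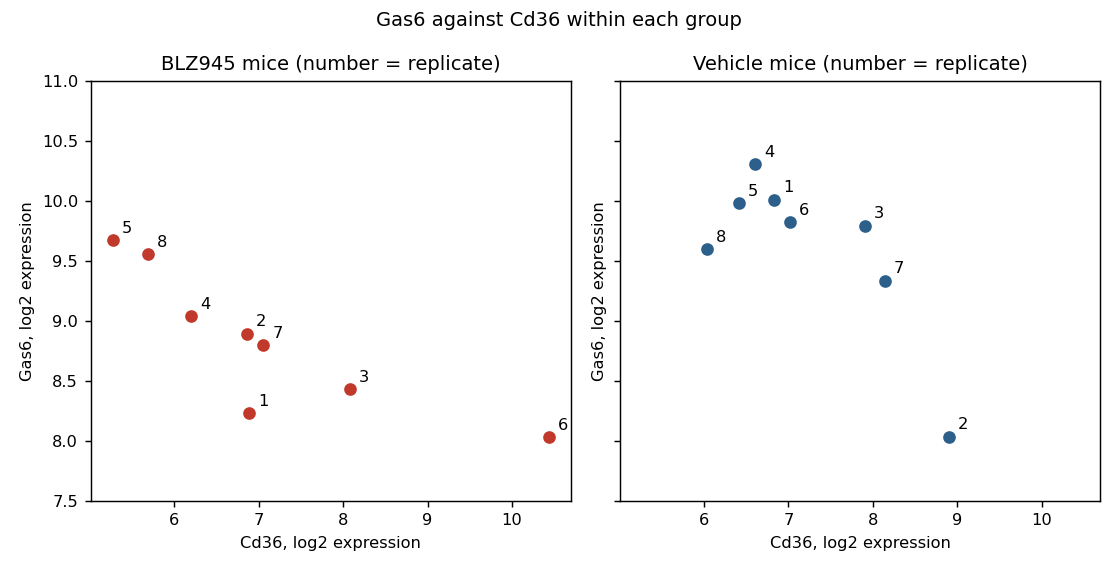
Log2 expression of Gas6 against that of Cd36 in the BLZ945 mice (left) and the Vehicle mice (right), each point a mouse with its replicate number. BLZ945 5 and 8 sit at Cd36 below 5.7 and Gas6 above 9.5, BLZ945 6 at 10.44 and 8.03, and Vehicle 2 lies apart from the other 7 Vehicle mice.

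Cd93, a C-type lectin-like transmembrane protein of myeloid and endothelial cells once described as a receptor for complement C1q and apoptotic cells, fell the most. Its lowest, median and highest values were 3.95, 4.57 and 5.69 in BLZ945, against 6.50, 7.21 and 8.07 in Vehicle. Every BLZ945 mouse was below every Vehicle mouse. The mean was 4.71 ± 0.60 in BLZ945 and 7.25 ± 0.50 in Vehicle, a difference of -2.54 (SE 0.25, 95% confidence interval -3.07 to -2.02, adjusted p = 1.54e-05), which is 5.83-fold lower, and the exact two-sided permutation p for this gene alone was 0.000155, the smallest that 8 against 8 mice can give. The call held in all 16 fits that left out 1 mouse (-2.68 to -2.43) and ended with log2 tumour volume as a covariate (-2.60, adjusted p = 0.061) and in males alone (-2.32, adjusted p = 0.0898).

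Cd93 also marks endothelial cells and monocytes. With the mean of the 13 endothelial markers as a covariate its difference was -2.56 (adjusted p = 6.37e-06), and with that of the 5 monocyte markers -2.08 (adjusted p = 0.000582). With the glioma and oligodendrocyte precursor markers it was -2.19 (adjusted p = 0.00938). The second Cd93 probe set averaged 4.41 ± 0.42 in BLZ945 and 4.41 ± 0.30 in Vehicle (-0.01, adjusted p = 0.983) and did not follow the first over the mice (r = 0.03). Its level lies close to the lower quartile of the arrays, 3.82 to 4.24, so the fall of Cd93 rests on a single probe set. By the same measure as for Cd36, the genes most like Cd93 were Arhgap18, a GTPase-activating protein (r = 0.78), S100a10, an annexin partner (r = 0.75), and Clec4e, a lectin receptor of macrophages (r = 0.75). Of these Clec4e fell in BLZ945 (-1.05, adjusted p = 0.0294), Arhgap18 (-0.29, adjusted p = 0.451) and S100a10 (0.30, adjusted p = 0.641) did not pass. Those most like Scarb1 were Aak1, an adaptor-associated kinase (r = 0.93), Tcf12, a transcription factor (r = 0.91), and Ylpm1 (r = 0.91), with differences of -0.05, -0.08 and 0.12 (adjusted p = 0.909, 0.835 and 0.705).

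Age was shared between the groups in the 4 BLZ945 and 4 Vehicle mice of 11.29 weeks, where 0.718% of all genes passed. There Cd93 fell (5.07 ± 0.64 in BLZ945 and 7.26 ± 0.52 in Vehicle, difference -2.19, adjusted p = 0.0273), and Gas6 fell too (8.40 ± 0.37 and 9.86 ± 0.41 in the same order, difference -1.46, SE 0.24, adjusted p = 0.0311). Vehicle 2 is not among these mice. Initial tumour volume still did not overlap in them, at 41.3 to 101.5 in BLZ945 and 11.9 to 27.3 in Vehicle. The Vehicle mice of this age also held more males than females, unlike the BLZ945 mice. Gas6 lay between 8.03 and 8.89 in these BLZ945 mice, against 9.33 to 10.31 in these Vehicle mice. The groups did not overlap in Cd93, Gas6 and Msr1, which were lower, and in Mertk, which was higher, where 9.68% of all genes did not overlap with 4 mice a group (5.63% lower and 4.05% higher). Msr1 differed by -1.39 (adjusted p = 0.112), Mertk by 0.52 (adjusted p = 0.15), Scarb1 by -0.70 (adjusted p = 0.186) and Cd36 by 1.02 (adjusted p = 0.523), the last with the opposite sign to all 16 mice. Pros1, Mfge8 and Marco differed by 0.31, 0.08 and 0.30 (adjusted p 0.433 to 0.876).

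Among the BLZ945 mice, none of the 9 genes passed between the 4 mice of 13.14 weeks and the 4 of 11.29 weeks, where 0.0403% of all genes did. Gas6 was 9.27 ± 0.42 at 13.14 weeks and 8.40 ± 0.37 at 11.29 weeks (difference 0.87, SE 0.25, adjusted p = 0.171). Cd36 was 6.05 ± 0.77 and 8.06 ± 1.68 in the same order (-2.01, SE 0.70, adjusted p = 0.201), and Cd93 was 4.35 ± 0.30 and 5.07 ± 0.64 (-0.72, SE 0.29, adjusted p = 0.241). The other 6 had adjusted p-values of 0.268 to 0.981. The slope on log2 tumour volume within BLZ945 did not pass for any of the 9 either, with 0.35 per doubling for Scarb1 having the smallest unadjusted p (adjusted p = 0.711), and 0 genes passed in that fit, with 846 at an unadjusted limma p under 0.05. Between females and males, with the agent as covariate, Cd36 had the widest gap (-1.11, SE 0.55, adjusted p = 0.512), and the 9 genes had adjusted p-values of 0.512 to 0.989, where 0.0323% of all genes passed. The interaction of agent and sex passed for 0 genes, with 414 at an unadjusted limma p under 0.05.

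Other genes of the same pathways were taken from lists chosen by name, with earlier results of these data known. Their counts, set beside those of all genes, are therefore a description only. Of 58 measured genes in 7 lists, 10 rose and 5 fell in BLZ945 and 43 did not pass, where 2.6% of all genes rose and 5.34% fell. The groups did not overlap in 5 of the 58, 3 lower and 2 higher, against 1.36% of all genes. The median difference was 0.11 over the 58 genes and 0.07 over all genes. Of the receptors for phosphatidylserine outside the TAM family, Stab1, the multifunctional receptor stabilin-1, fell by 1.40 log2 units (8.55 ± 0.55 in BLZ945 and 9.95 ± 0.39 in Vehicle, adjusted p = 0.000587) and did not overlap between groups. Cd300a, an inhibitory receptor, rose by 0.73 (adjusted p = 0.0108) and Trem2, a lipid receptor of microglia, by 0.75 (adjusted p = 0.0346), and the other 5 of the 8 did not pass. None of 11 bridging proteins and integrins passed, the complement genes C1qa, C1qb and C1qc, the integrin genes Itgav and Itgb5, and Thbs1 among them.

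Of 9 measured genes of engulfment and its signalling, Sirpa, which binds the CD47 signal against uptake, rose by 0.43 (adjusted p = 0.0394) and Calr, the calreticulin gene, fell by 0.37 (adjusted p = 0.0494). The other 7, the guanine exchange factor genes Dock1 and Dock2 and their partner Elmo1 among them, did not pass. Of 10 measured genes of corpse degradation and the cholesterol response, 3 rose, the cholesterol exporter genes Abca1 (0.56, adjusted p = 0.00677) and Abcg1 (0.81, adjusted p = 0.000405) and the lysosomal acid lipase gene Lipa (0.63, adjusted p = 0.00922), and 0 fell. Abca1 and Abcg1 did not overlap between groups. None of 5 measured genes of the vitamin K cycle and of the coagulation partners of Gas6 and Pros1 passed.

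Of 13 other scavenger receptors measured, 3 fell and 3 rose. Mrc1, the mannose receptor, fell by 3.08 (adjusted p = 0.000171) and Cd163, the haemoglobin receptor, by 1.40 (adjusted p = 0.000171). The groups did not overlap in Mrc1 and Cd163. Vldlr, a lipoprotein receptor, fell by 0.98 (adjusted p = 0.0487). Mrc1 was 6.38 ± 1.15 in BLZ945 and 9.45 ± 0.62 in Vehicle. Cd163 was dim, at 3.28 ± 0.29 and 4.69 ± 0.48 in the same order, and Vldlr was 4.26 ± 0.58 and 5.24 ± 0.74. Scarb2, the lysosomal class B relative of Cd36 and Scarb1, rose by 0.40 (adjusted p = 0.0389), Cxcl16, a chemokine and receptor for oxidised lipoprotein, by 0.58 (adjusted p = 0.0281) and Clec7a, the beta-glucan receptor dectin-1, by 0.83 (adjusted p = 0.0474). The calls of Axl, Stab1, Cd300a, Abca1, Abcg1, Lipa, Cd163 and Mrc1 held in all 16 fits that left out 1 mouse, but each ended with log2 tumour volume as a covariate and in males alone. With tumour volume Abca1 was 0.05 (adjusted p = 0.865), Cd300a 0.21 (adjusted p = 0.717) and Lipa 0.37 (adjusted p = 0.461). In the mice of 11.29 weeks Abca1 (0.37, adjusted p = 0.249), Abcg1 (0.66, adjusted p = 0.0878), Lipa (0.44, adjusted p = 0.338) and Cd300a (0.71, adjusted p = 0.251) did not pass. With the glioma and oligodendrocyte precursor markers as a covariate Stab1 was -0.93 (adjusted p = 0.207), Cd300a 0.29 (adjusted p = 0.726), and Abca1, Abcg1 and Lipa lost their calls (adjusted p 0.0529 to 0.103). Abca1 and Lipa were 0.33 and 0.41 with sex and age cohort (adjusted p = 0.315 each) and 0.42 and 0.36 with the monocyte markers (adjusted p = 0.126 and 0.219). With the mean of its probe sets Abca1 was 0.68 (adjusted p = 0.139). Of 43 alternative fits Mrc1 passed in 41, Stab1 in 40, Abcg1 in 39, Lipa in 36, Cd300a in 34 and Abca1 in 33, and Cd163 passed in 40 of 42.

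The calls of the other 7 genes depended on single mice. Omitting Vehicle 1, 4 or 6, or BLZ945 7, ended that of Cxcl16 (0.0562 to 0.0624 as adjusted p), and omission of single mice ended the others as follows. Trem2 was lost without Vehicle 1, 2, 6 or 7 or BLZ945 1, 3, 4, 5 or 8 (0.0573 to 0.0736). Sirpa was lost without Vehicle 1, 5, 6, 7 or 8 or BLZ945 1, 3, 5, 7 or 8 (0.0523 to 0.0846), and Scarb2 without Vehicle 1, 2, 6, 7 or 8 or BLZ945 1, 2, 3, 5, 7 or 8 (0.0519 to 0.0785). Clec7a was lost without Vehicle 1, 3, 4, 5, 6 or 8 or BLZ945 3, 4, 5, 6, 7 or 8 (0.0507 to 0.0992) and Vldlr without Vehicle 1, 2, 4, 5, 6 or 8 or BLZ945 1, 3, 5, 6, 7 or 8 (0.0508 to 0.102). With the glioma and oligodendrocyte precursor markers as a covariate Vldlr turned to 0.29 (adjusted p = 0.75). Calr kept its call in 3 of the 16 fits, without Vehicle 2 or BLZ945 3 or 6, and had adjusted p-values of 0.0616 to 0.102 in the others. With the mean of all probe sets of a gene, Trem2 (0.45, adjusted p = 0.0934) and Sirpa (0.39, adjusted p = 0.088) lost their calls. So did Scarb2 (0.34, adjusted p = 0.122) and Calr (-0.30, adjusted p = 0.0818), while Cxcl16 kept its call (adjusted p = 0.0166). For Clec7a the difference was 0.83 in that fit and in the main fit alike (adjusted p = 0.0485 with the mean). Averaging therefore could not change its values and was no check of its call.

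**Figure D4:**
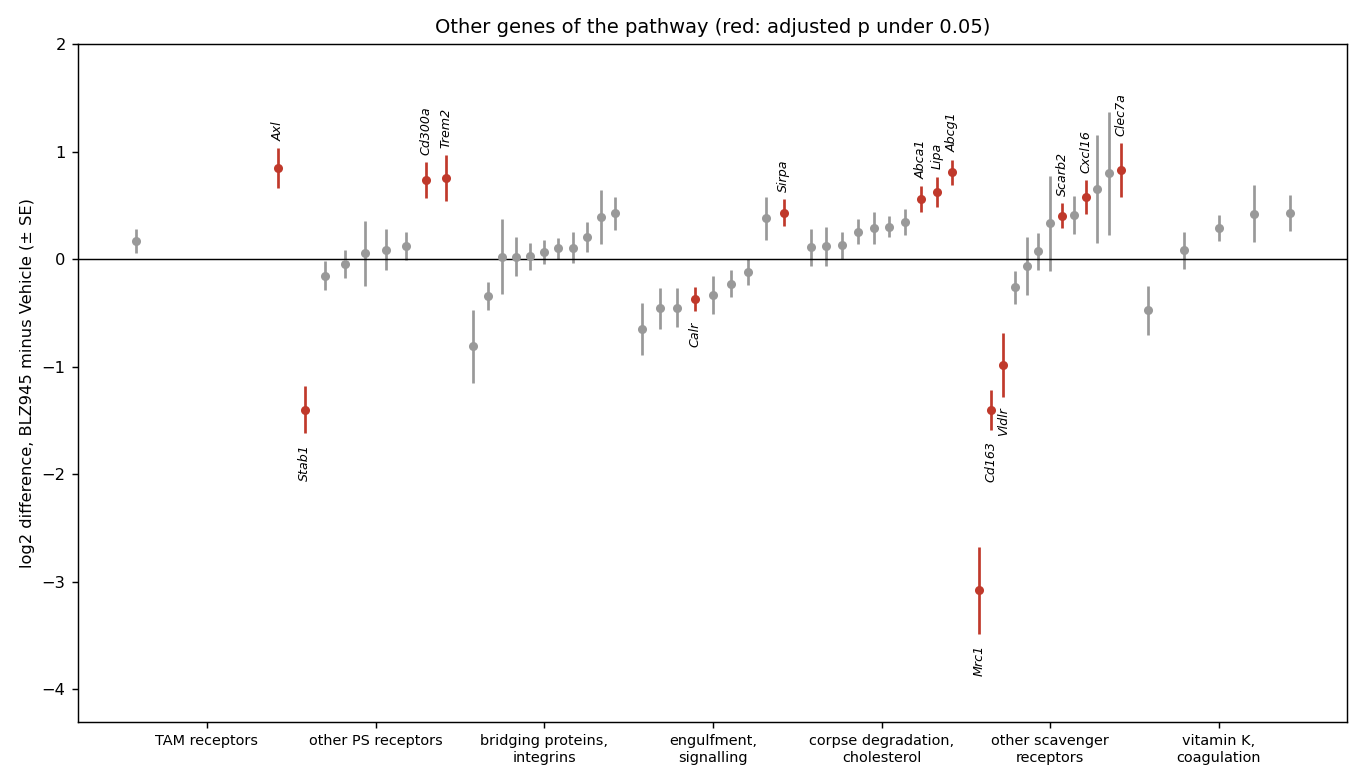
Log2 difference, BLZ945 minus Vehicle, with its SE for 58 other genes of the pathways in 7 lists along the horizontal axis, PS standing for phosphatidylserine. Red points with names are the 15 genes with an adjusted p under 0.05, from Mrc1 at -3.08 to Axl at 0.85, and no bridging protein or integrin gene is among them.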

How the data were processed

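RNA of CD11b+ Gr.1- cells, 75 ng per mouse per the labels, was profiled on Affymetrix 3' arrays. The authors deposited log2 values, 1 per probe set and array. GCOS 1.4 and RMA are listed in the submitters' processing notes, with no step assigned to either. The genome build was not given in the sources. RMA compresses differences of dim probe sets. No scanner intensities were analysed here, so detection is unknown, and precision is limited by how many arrays there are.

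Of 22690 probe sets, 20393 had 1 symbol in the platform annotation. Each of 12394 genes was represented by its brightest probe set (mean over 16 arrays) and tested with limma 3.58.1 in R 4.3.3 (lmFit, eBayes, no covariate, no filter), with Benjamini-Hochberg adjustment over all genes. Further fits compared sexes (adjusting for agent), the agent effect between sexes, and age and log2 tumour volume within BLZ945. Named genes are the 10 listed, Axl and Tyro3, passing genes of the other lists, and the 3 genes most like each passing member. Names beyond these (non-passing list genes, the genes most like Cd36) were chosen after their values were seen. The members and lists were chosen with earlier results of these data known. The fits were tested on simulated data. Labels do not say that replicate numbers pair mice across groups, and same-numbered mice did not deviate together in every pair (r -0.48 to 0.39).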

Additional observations from a re-analysis of the deposited data

Results flagged for a closer look

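Gas6 in Vehicle 2 was 8.04, far below the next lowest Vehicle mouse at 9.33, a gap of 0.572 of the range of that group. Chance alone sets apart about 1 in 20 groups by this measure. It was applied to both groups of each of the 9 measured genes and set apart only this value, about what that rate gives. Vehicle 2 also had the highest Cd36 of the Vehicle mice, 8.90, and the lowest Pros1, 8.88. The cause was not tested.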

How the results depend on the processing

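Cd93 kept its direction under all 43 alternative fits and its call under 41 of them, with differences of -2.71 to -1.28, the last with the mean of its 2 probe sets. Scarb1 was lower under all 43 and passed under 18. Without 1 mouse at a time, 1 to 4 of the 9 genes passed and 710 to 1188 genes in all. Of the 9 genes, 0 passed with tumour volume as covariate and in males alone, and 1 passed in females alone, with a replicate block, and with the mean of neutrophil, pericyte and fibroblast, astrocyte, glioma, T and NK cell or B cell markers as covariate. Marker covariates were chosen after seeing the data. In place of 984, the number of genes that passed was 355 with sex and age cohort, 1647 with array SD, 15 with tumour volume in 14 mice, 89 at 11.29 weeks, 393 in females, 2 in males, and 405, 438, 242, 126, 550 and 4492 with microglia, monocyte, astrocyte, glioma, T and NK cell and platelet markers. Repeated quantile normalization called 649 of 1142 genes lower, against 662 of 984 here. Between older and younger BLZ945 mice 5 genes passed, and 0 to 16 without 1 mouse.

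Among the called list genes, Vldlr alone changed sign (0.29 with glioma markers), and no call of the 9 genes did. Cd36 was 0.0896 with the mean of its probe sets, 1.31 with sex and age cohort, 0.26 with array SD, 0.65 with tumour volume, 1.02 at 11.29 weeks, 0.60 in males, 1.10 with monocyte markers and -0.65 to 0.0835 without 1 mouse, above 0 without Vehicle 2, BLZ945 5 or BLZ945 8. Mfge8 was -0.0074 with sex and age cohort and -0.10 in males, and its volume slope 0.13 with sex. Msr1 was 0.0064 with glioma markers. Scarb1 by age in BLZ945 was 0.0516 with sex and -0.14 to 0.092 without 1 mouse. The causes were not tested. With a replicate block 873 genes passed, and of the 9 genes only Scarb1 lost its call. Of 8 BLZ945 mice, 2 correlated best with the Vehicle mouse of the same number, so the numbers were not taken to pair mice. Dim probe sets limit what could be seen for Marco, Cd93, Cd163, Vldlr and Tyro3.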
